A study of Taeniopygia guttata with 10 samples.

Results

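DNMT3B (ENSTGUG00000006412) is annotated on chromosome 20 of the zebra finch assembly taeGut3.2.4, from position 7897148 to 7904899, a span of 7752 bp. It is 1 of the 18618 genes with RNA-seq counts. Its surroundings were taken as the gene body and 20 kb on each side, from 7877148 to 7924899, which held 31 of the 719917 Methylation Peaks and 123 of the 1074648 CpGs measured by bisulfite sequencing. The peaks and CpGs were chosen by position alone, whereas the gene and its window were chosen with earlier results of these data known. The strand and the exons of the gene were not used here, so its ends are called the lower and the upper end by coordinate, and the promoter may lie at either. In the RefSeq gene order of a later zebra finch assembly, bTaeGut7.mat, DNMT3B lies between MAPRE1 and COMMD7.

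DNA methyltransferases add methyl groups to the cytosine of CpG dinucleotides. In mammals, DNMT1 copies the existing pattern onto the new DNA strand at replication, whereas DNMT3B and its relative DNMT3A place methyl groups on CpGs that carried none. Mammalian DNMT3B is abundant in the early embryo and low in most differentiated cells. AZA (5-aza-2′-deoxycytidine) is a cytidine analogue that is built into DNA and traps these enzymes there, so that methylation is lost as cells divide.

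The study cultured G266, a diploid male line, and ZFTMA, a tetraploid female line, both from spontaneous zebra finch tumors, with 1 µM AZA or with its solvent DMSO over 72 h, dosed anew every 24 h. The cells of a culture were split between DNA and RNA. Each line and treatment gave 1 MethylCap-seq and 1 RNA-seq library, so that the 2 lines were the replicates of a treatment, and untreated ZFTMA gave 1 further MethylCap-seq library and 1 library of reduced representation bisulfite sequencing (RRBS). The p-values therefore rest on how alike the 2 lines responded, with no replicate library within a line. The tests also shared estimates of variation among all genes or all peaks, so no p-value measures the spread of a single gene or peak alone.

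RNA-seq totals were 22306354 to 35075936 fragments per library. MethylCap-seq pulls down methylated DNA by a protein domain that binds methyl-CpG, and 2549052 to 10358829 fragments per library lay in Methylation Peaks, the regions that the authors defined as possibly methylated from the pooled DMSO coverage. A change was called at an adjusted p of at most 0.1 from the quasi-likelihood test of edgeR, adjusted over all genes or all peaks (Benjamini-Hochberg), with the cell line as a block. By this rule 27.9% of all genes were higher and 16.3% lower after AZA, and 54.6% of all peaks were lower and 0.00167% higher. The study itself, also with edgeR, a paired design and an FDR of 0.1, called fewer genes higher, far fewer genes lower and far fewer peaks lower. The calls given here are therefore not those of the study, and the cause of the difference was not tested.

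DNMT3B RNA was scarce in all 4 libraries. In G266, 5 fragments were counted with DMSO and 10 with AZA. In ZFTMA, 5 fragments were counted with DMSO and 11 with AZA. Both AZA-treated libraries thus held more fragments than both DMSO-treated libraries. The share of all genes, or of genes at this depth, with the same order was not counted.

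After division by the PoissonSeq depth of each library, the normalized count of DMSO-treated G266 was 5.88 (95% exact Poisson interval 1.91 to 13.7), and that of AZA-treated G266 was 10.5 (5.04 to 19.3). For ZFTMA the normalized count was 3.75 (1.22 to 8.75) with DMSO and 11.9 (5.93 to 21.2) with AZA. These intervals cover counting error only, and within each line those of DMSO and AZA overlap. The mean normalized count was 4.81 ± 1.5 with DMSO and 11.2 ± 0.959 with AZA (SD, n = 2 cell lines).

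The fitted log2 fold change of DNMT3B was 1.25 (SE 0.71), with an adjusted p of 0.159 in edgeR's quasi-likelihood test, so that the increase was not called. The symbol and position of DNMT3B came from the study's own gene lists, drawn up on these libraries. The study's own result for this gene was not used here. By line, the log2 ratio with a prior of 0.5 counts was 0.77 in G266 and 1.59 in ZFTMA. Over 10 alternative settings the log2 fold change ranged from 0.91 to 1.55 and the adjusted p from 0.0674 to 0.591. The increase passed the threshold in 1 of these, when genes under 10 counts in more than 2 of the 4 libraries were left out (log2 fold change 1.25, adjusted p = 0.0674 in edgeR). DNMT3B passed that filter only through its AZA-treated libraries, with 10 and 11 fragments. The filter thus depended on the group with the higher counts, and the call is no separate evidence of an increase. In bulk RNA, more expressing cells and more RNA per cell cannot be told apart, and reads of an overlapping gene on the other strand could not be separated, as the strand setting of the counting was not given in the sources used here.

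**Figure D1:**
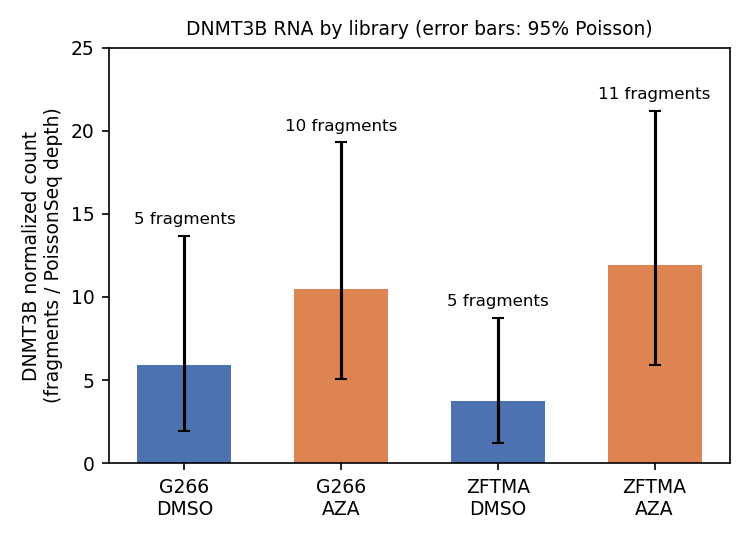
DNMT3B RNA in the 4 RNA-seq libraries, as fragments divided by the PoissonSeq depth of the library; bars are single libraries, error bars are exact 95% Poisson intervals and the labels give the fragments counted. The AZA bars stand at 10.5 and 11.9, above the DMSO bars at 5.88 and 3.75, with overlapping intervals in each line.

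Other genes of a like depth give a scale for these values. Over the 4 libraries the mean normalized count of DNMT3B was 8.0. Of the 1716 genes with a mean within 2-fold of it, 790 (46.0%) were called higher and 19 (1.11%) lower, beside 27.9% and 16.3% of all genes. The mean took in the AZA-treated libraries, so genes could enter through the group where they were high. The 1716 were thus not a neutral set. The smallest log2 fold change among the 790 was 0.97 and the median of all 1716 was 1.33, so that the value of DNMT3B lay within the range of genes that were called at this depth.

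Likeness to DNMT3B was measured among the 286 other genes with a symbol and a mean within 2-fold, as the Euclidean distance of the centred log2(normalized count + 1) over the 4 libraries. The nearest was WNK4, a kinase that regulates ion transport in the mammalian kidney, at a distance of 0.273, with 3 (DMSO) and 6 (AZA) fragments in G266 and 2 and 7 in ZFTMA. SERPINE3, a member of the serine protease inhibitor family, followed at 0.324 with 5 (DMSO) and 10 (AZA) in G266, against 7 and 12 in ZFTMA. The next were TCTE1 at 0.364 and SASH3 at 0.379, a sperm flagellum protein and a signalling adaptor of lymphocytes in mammals. The fifth, listed as B5MF00_TAEGU, stood at 0.397 and held 7 and 19 in G266, against 9 and 22 in ZFTMA. The median candidate lay at 1.49. Of these 5 genes, B5MF00_TAEGU was called (log2 fold change 1.56, adjusted p = 0.00779 in edgeR), and the others had adjusted p-values of 0.168 to 0.328. Of the 1716 genes at this depth, 46.0% were called higher. The 5 were picked for their pattern over these same libraries, so their higher counts with AZA follow from the choice. Symbols came from the study's own gene lists, drawn up on these libraries, so the 286 were not a neutral set.

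Of a list of 53 genes of DNA methylation writers, readers, erasers and partners, 11 could be paired with an identifier of the count table. DNMT1 and DNMT3A were on the list but not among the 11, which held no DNA methyltransferase besides DNMT3B. Besides DNMT3B, 6 of 10 were called higher after AZA, beside 27.9% of all genes, and 4 were not called. None (0) was called lower, with 1 lower at an unadjusted p under 0.05 in edgeR, and 0 lower and 2 higher in DESeq2. Identifiers came from the study's own gene lists, which were drawn up on these libraries, so that these counts are not independent evidence of a direction. The median log2 fold change of the 10 genes was 0.24, against 0.07 for the 13434 genes that reached 10 counts in 2 or more libraries.

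HDAC9, a class IIa histone deacetylase, held normalized counts of 75.2 with DMSO and 223 with AZA in G266, and of 87.0 and 241 in ZFTMA. The fitted change was 1.51 on the log2 scale (SE 0.17, adjusted p = 5.04e-18 in edgeR). GADD45G, a stress-induced growth arrest gene whose family has been tied to active demethylation in vertebrates, held 416 and 832 in G266, against 499 and 1010 in ZFTMA, for a log2 fold change of 1.01 (SE 0.10, adjusted p = 1.87e-20). For both genes the AZA-treated libraries lay above both DMSO-treated libraries, an order whose share over all genes was not counted. Both were called higher in all 10 alternative settings.

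CXXC4, whose CXXC domain binds unmethylated CpGs in mammals, was nearly as scarce as DNMT3B, with 10 fragments in G266 after DMSO and 23 after AZA, and 9 and 17 in ZFTMA. The log2 fold change of 1.22 (SE 0.50) was close to that of DNMT3B and was called (adjusted p = 0.0371 in edgeR). The other increases were smaller. The log2 fold change was 0.34 for NEIL1, a DNA glycosylase of base excision repair, 0.25 for CHD4, the remodelling ATPase of the NuRD complex, and 0.24 for DMAP1, a partner of DNMT1 (adjusted p = 0.055, 0.00401 and 0.0364). These 6 genes kept log2 fold changes above 0 under every RNA scaling tried, the lowest being 0.13 for DMAP1. Of the 10 alternative settings, CXXC4 was called higher in 7, CHD4 in 3, DMAP1 in 2 and NEIL1 in 2.

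The count of 6 rose to 7 with total gene counts and stayed at 6 with the filter on low counts. It fell to 3 with TMM scaling, with DESeq2 size factors and without the replicate block, and to 2 with the Wald test of DESeq2. It was 2 without AZA-treated G266, 2 without DMSO-treated ZFTMA, 4 without DMSO-treated G266 and 3 without AZA-treated ZFTMA. Among the genes that were not called, MBD4, a methyl-CpG-binding glycosylase, had a log2 fold change of -0.13 and SUV39H2, a histone H3 lysine methyltransferase, of -0.22 (adjusted p = 0.503 and 0.107 in edgeR). SAMHD1, which hydrolyses deoxynucleotide triphosphates, stood at 0.10 and SETD2, another histone H3 lysine methyltransferase, at 0.04 (adjusted p = 0.38 and 0.806). SUV39H2 was called lower in 3 of the 10 alternative settings, among them TMM (-0.32, adjusted p = 0.0117).

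**Figure D2:**
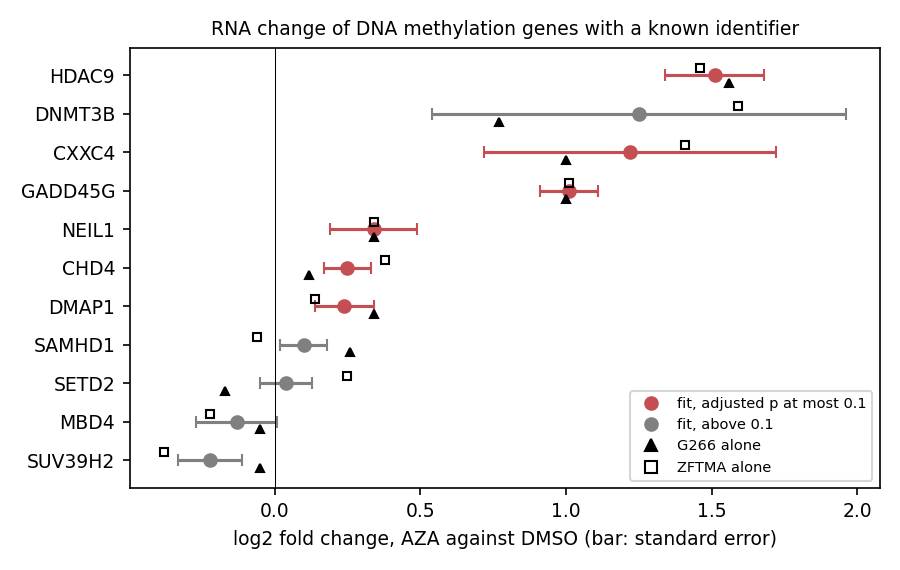
RNA log2 fold change (AZA against DMSO) of the 11 genes of the DNA methylation list with an identifier; circles and bars are the edgeR fit and its standard error, triangles and squares the ratios of G266 and ZFTMA alone. DNMT3B, at 1.25 with a standard error of 0.71, has the widest bar of the 11, and HDAC9 (1.51) and GADD45G (1.01) have narrow ones.

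The 31 Methylation Peaks around DNMT3B comprised 15 in the lower flank, 4 in the gene body and 12 in the upper flank, with each peak placed by its midpoint. They covered 11197 bp and had a median width of 296 bp, against 126 bp for all peaks and 171 bp for those of chromosome 20. A single CpG made up 4 of them (12.9%, against 27.5% of all peaks). Over the 4 treated libraries the peaks held 4 to 253 fragments, with a median of 29.

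Summed over the 31 peaks, DMSO-treated G266 held 524 fragments and AZA-treated G266 held 110. ZFTMA held 575 with DMSO, 133 with AZA and 699 untreated. Reads outside peaks went the other way, from 1914228 to 2714187 in G266 and from 832972 to 2019316 in ZFTMA. Per 1000000 reads outside peaks, the library size that the study chose, the sum fell from 274 to 40.5 in G266 and from 690 to 65.9 in ZFTMA.

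On this scale the AZA-treated cells kept 14.8% of the DMSO signal in G266 (95% interval for counting error 11.9 to 18.2) and 9.54% in ZFTMA (7.84 to 11.5). The gene body kept 13.9% in G266 (9.08 to 20.7) and 9.64% in ZFTMA (6.75 to 13.5). The lower flank kept 16.8% and 11.8%, and the upper flank 13.1% and 7.59%. All peaks together kept 17.4% in G266 and 13.1% in ZFTMA, and those of chromosome 20 kept 15.8% and 10.5%. The loss of signal around DNMT3B was thus of about the size seen over its chromosome, and the difference was not tested. The paper describes MethylCap-seq as only semi-quantitative, so these values are not shares of methylation. At selected promoters its pyrosequencing showed modest changes where the MethylCap-seq effect was clear.

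The share of the captured fragments that fell on these peaks moved far less. Per 1000000 fragments in peaks, the 31 peaks held 50.6 with DMSO and 43.2 with AZA in G266, and 67.1 and 48.9 in ZFTMA. The gene body peaks held 14.7 and 11.8 in G266 and 21.5 and 15.8 in ZFTMA. For chromosome 20 the values were 14200 and 12900 in G266 and 17500 and 14100 in ZFTMA.

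Of the 31 peaks, 20 were called lower after AZA (64.5%, beside 54.6% of all peaks) and none (0) higher, with 0 higher at an unadjusted p under 0.05 in edgeR. Peaks were defined from DMSO coverage alone, so regions with signal only after AZA could not be among them. The direction of these counts is thus not free of that choice. The 20 comprised 10 of 15 in the lower flank, 3 of 4 in the gene body and 7 of 12 in the upper flank. The 11 peaks that were not called held at most 13 fragments. Among peaks with at least 10 fragments, 19 of 21 (90.5%) were called lower, beside 76.9% of all such peaks and 86.9% of those on chromosome 20. The median log2 fold change of the 21 was -3.18, against -2.93 on chromosome 20 and -2.62 over all peaks.

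These calls rest on the library size. With all non-duplicate reads as the library size, 5 of the 31 peaks were called lower, beside 7.37% of all peaks. With TMM, which scales the libraries on the peak counts themselves, none (0) of the 31 was called, and 0.0206% of all peaks were called lower. In that fit 4 of the 31 were lower and 0 higher at an unadjusted p under 0.05 in edgeR, and 25 had a log2 fold change below 0. The corresponding shares of all peaks were not counted. Without AZA-treated G266, fewer of the 31 peaks were called than without any other single library, as was so for all peaks. Those fits had no block, since a block would leave no residual degrees of freedom, and the lone sample of an arm was assumed to vary like the others. That arm then held a single line, so that line and treatment were partly confounded in every fit without a library.

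**Figure D3:**
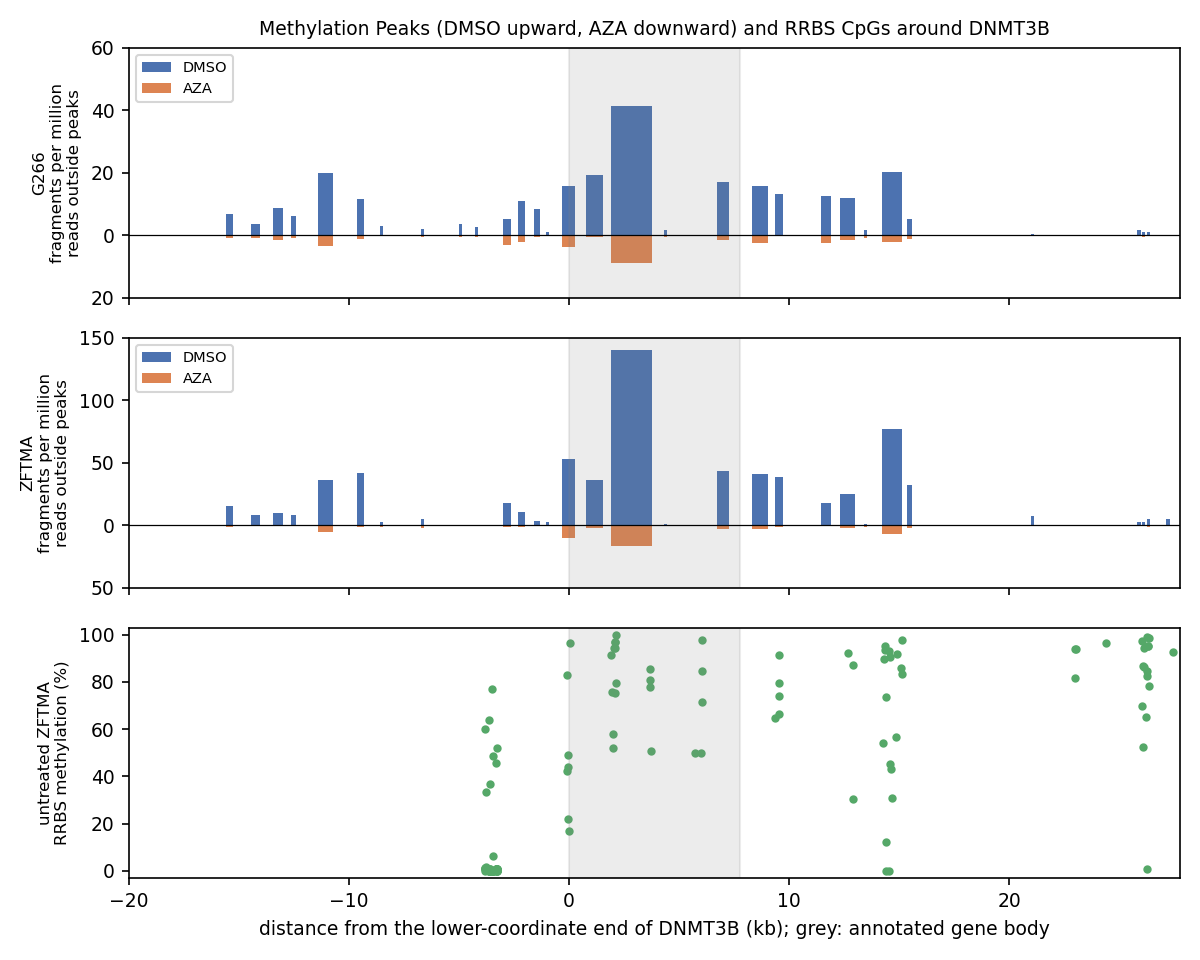
Methylation Peaks and RRBS CpGs from 20 kb below to 20 kb above DNMT3B (distance from its lower end in kb, gene body in grey); the upper panels show fragments of each peak per 1000000 reads outside peaks in G266 and ZFTMA, with DMSO upward and AZA downward on the same scale and bars as wide as the peaks, and the bottom panel shows the methylation degree of single CpGs in untreated ZFTMA. The tallest bar in both lines is the peak within the gene body at 7899060 to 7900907, and a group of CpGs near 0% lies 3.26 to 3.84 kb below the gene.

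Within the gene, the widest and most covered peak ran from 7899060 to 7900907 (1848 bp), and 0.824% of all peaks were at least as wide. It held 79 fragments with DMSO and 24 with AZA in G266, and 117 and 33 in ZFTMA, with 166 in the untreated ZFTMA library. In both lines AZA left fewer fragments than DMSO, with a log2 fold change of -2.68 (SE 0.57, adjusted p = 1.39e-05 in edgeR). With all non-duplicate reads as the library size the log2 fold change of this peak was -0.68 (adjusted p = 0.197 in edgeR). With TMM it was -0.25 (adjusted p = 0.992), so that the size of the loss at this peak rests on the library size. Its 15 RRBS CpGs had a mean methylation degree of 80.6% in untreated ZFTMA, from 50.8% to 100%.

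The peak below it, from 7897918 to 7898691, lost nearly all its fragments, with 37 and 1 counted in G266 and 30 and 4 counted in ZFTMA. The log2 fold change was -4.59 (SE 0.60, adjusted p = 3.01e-11). The peak at the upper end of the gene, from 7903875 to 7904423, held 33 fragments with DMSO and 4 with AZA in G266, and 36 and 6 in ZFTMA, for a log2 fold change of -3.69 (SE 0.54, adjusted p = 8.35e-10). The remaining peak of the gene body, a single CpG at 7901471, held 5 fragments over the 4 treated libraries and was not called. Without AZA-treated G266 the adjusted p in edgeR was 0.496, 0.134 and 0.175 for the 3 called peaks in the order given, and without AZA-treated ZFTMA the widest peak was also not called (0.351). Without DMSO-treated ZFTMA the log2 fold change of the widest peak was -1.72 and that of the peak at 7903875 was -2.97, whereas that of the peak at 7897918 was -5.97 without AZA-treated ZFTMA and -3.74 without AZA-treated G266.

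The lower end of the gene was covered by the peak from 7896803 to 7897422. It held 30 fragments with DMSO and 10 with AZA in G266, and 44 and 20 in ZFTMA, with 83 in untreated ZFTMA. In both lines the AZA-treated library kept a larger share of the raw count here than in any other of the named peaks that were called. The log2 fold change was -2.26 (SE 0.49, adjusted p = 1.97e-05 in edgeR), and with TMM it turned to 0.17 (adjusted p = 0.992). The call was lost without AZA-treated G266 (log2 fold change -1.76, adjusted p = 0.417), without DMSO-treated ZFTMA (-1.24, 0.155) and without AZA-treated ZFTMA (-3.17, 0.163).

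RRBS read 7 CpGs in this peak, each with 57 to 59 reads. The first, at 7897068, had a degree of 83.1% (exact 95% binomial interval 71.0 to 91.6) and the last, at 7897191, of 96.5% (87.9 to 99.6). The 5 CpGs between them were lower, from 16.9% (8.44 to 29.0) at 7897142 to 49.2% (35.9 to 62.5) at 7897092, with a mean of 34.9%. The first and the last were also the ends of a run of CpGs at most 50 bp apart. Run ends are described below, and the part of that pattern in these degrees was not tested. The CpG with the lowest degree lay 6 bp outside the annotated end. These intervals cover counting error only, since reads copied by PCR are not independent molecules.

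Just below, the peak from 7895563 to 7895809 held 16 fragments with DMSO and 1 with AZA in G266, and 3 and 1 in ZFTMA. The log2 fold change was -3.70 (adjusted p = 3.04e-04), and without DMSO-treated G266, the library with most of its fragments, the value was -2.90 and the adjusted p in edgeR 0.142. The single-CpG peak at 7896088 held 5 fragments in all and was not called (adjusted p = 0.363).

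At the upper end, the peak from 7905467 to 7906170 lay 568 bp above the gene. It held 30 fragments with DMSO and 7 with AZA in G266, and 34 and 6 in ZFTMA, for a log2 fold change of -3.18 (adjusted p = 1.73e-08). The next peak, from 7906506 to 7906844, held 25 fragments with DMSO and 0 with AZA in G266, and 32 and 3 in ZFTMA. It had the smallest p of the 31 peaks, with a log2 fold change of -5.14 (SE 0.66, adjusted p = 1.57e-11 in edgeR), and with TMM it stood at -2.78 with an adjusted p of 0.138. Its 5 RRBS CpGs, of 142 reads each, had a mean degree of 75.2% in untreated ZFTMA, from 64.8% to 91.5%. Without AZA-treated G266 the adjusted p in edgeR was 0.173 for the lower and 0.11 for the upper of these peaks, and without AZA-treated ZFTMA the former stood at 0.113. The log2 fold change was -2.48 for the lower without DMSO-treated ZFTMA, and for the upper it was -4.01 without AZA-treated G266 and -8.52 without AZA-treated ZFTMA.

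Farther out, the most covered peak of the upper flank ran from 7911345 to 7912271 and held 39 fragments with DMSO and 6 with AZA in G266, and 64 and 14 in ZFTMA (a log2 fold change -3.34, adjusted p = 1.57e-08 in edgeR). The most covered peaks of the lower flank apart from that at the gene's end were those from 7885753 to 7886411 and from 7887500 to 7887851. In the former, G266 held 38 fragments with DMSO and 9 with AZA and ZFTMA held 30 and 10, for a log2 fold change of -2.70. In the latter, G266 held 22 and 3 and ZFTMA held 35 and 2, for a log2 fold change of -4.37 (adjusted p = 1.45e-10). In each of these 3 peaks both lines held fewer fragments with AZA. With TMM the log2 fold changes were -0.92 at 7911345, -0.28 at 7885753 and -1.99 at 7887500, and none of these peaks was called. Without AZA-treated G266 and without AZA-treated ZFTMA the peaks at 7911345 (adjusted p = 0.302 and 0.132 in edgeR) and 7885753 (0.241 and 0.145) were not called, whereas that at 7887500 was (0.0883 and 0.0562). Without DMSO-treated ZFTMA the log2 fold changes were -2.19 at 7911345, -2.27 at 7885753 and -3.38 at 7887500.

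By the log2 ratio of a line, 30 of the 31 peaks lay below 0 in both lines, and 25 had fewer raw fragments in both. The choice of peaks by DMSO coverage favoured this direction. Summed over all peaks, the AZA-treated libraries held 24.6% of the raw DMSO fragments in G266 and 31.7% in ZFTMA. The shares of all peaks that lay below 0, or held fewer raw fragments, in both lines were not counted. For 2 of the 30, those at 7892135 (0 fragments in both treated ZFTMA libraries) and 7924289 (0 in both G266 libraries), the ratio of that line was set by the library sizes and the prior alone, so that no direction was measured there. The exception to the 30 was a single-CpG peak at 7892871, where G266 held 5 fragments with DMSO and 1 with AZA and ZFTMA held 0 and 1. Among peaks with at least 20 fragments, the log2 ratios of the lines lay farthest apart at 7908608 to 7909055, with -2.21 in G266 (24 fragments with DMSO, 7 with AZA) and -6.23 in ZFTMA (15 and 0). Next came the peak from 7894129 to 7894494, with -0.81 in G266 (10 and 8 fragments) and -3.91 in ZFTMA (15 and 2). With 1 library per line and treatment, these differences were not tested. At 7918135, 1 fragment in G266 and 6 in ZFTMA with DMSO stood against 0 in both AZA-treated libraries.

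**Figure D4:**
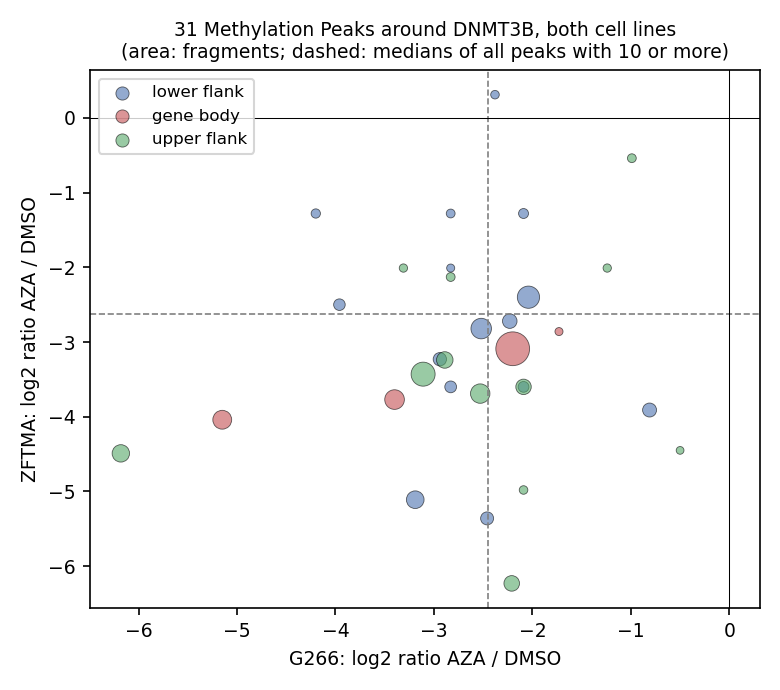
Log2 ratio of AZA to DMSO in G266 (x) and ZFTMA (y) for the 31 Methylation Peaks, scaled by reads outside peaks with a prior of 0.5 counts; colours give the zone, the point area the fragments over the 4 treated libraries, and dashed lines the medians of all peaks with at least 10 fragments. On this scaling 30 points lie below 0 in both lines, and 1 small point lies at 0.31 in ZFTMA. Peaks were defined from DMSO coverage, which favours values below 0. For 2 of the 30, with no fragment in a line, the scaling and the prior alone place the point. With TMM, 25 of the 31 fitted values lay below 0. The corresponding shares of all peaks were not counted.

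Untreated and DMSO-treated ZFTMA held similar signal around DNMT3B. Per 1000000 reads outside peaks, the 31 peaks summed to 793 untreated and 690 with DMSO, a log2 ratio of 0.20, beside 0.18 for all peaks. In the 14 peaks with at least 20 fragments in these libraries together, the log2 ratio ran from -0.88 to 0.83 with a median of 0.10. The highest value was that of the peak at the lower end of the gene (83 fragments untreated, 44 with DMSO) and the lowest that of the peak at 7897918 (17 and 30). With 1 library each, no test was made.

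RRBS of untreated ZFTMA gives the methylated share of the reads at single CpGs. The 123 CpGs were covered by 12 to 446 reads, with a median of 127. Their mean degree was 46.6%, beside 51.3% for all CpGs and 51.9% for the 21204 CpGs of chromosome 20. This mean joined unlike zones, with 12.5% over 56 CpGs of the lower flank, 79.1% over 21 CpGs of the gene body and 73.2% over 46 CpGs of the upper flank. Below a degree of 5% stood 44 of the 123 CpGs (35.8%, against 25.7% of all CpGs and 23.7% on chromosome 20).

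No CpG of the gene body fell below 50%. The lowest were at 7902862, with 6 of 12 reads methylated (50.0%, exact 95% binomial interval 21.1 to 78.9), and at 7903126, with 29 of 58 (50.0%, 36.6 to 63.4). The highest was at 7899272, with 41 of 41 reads methylated (100%, 91.4 to 100). CpGs inside Methylation Peaks had a mean degree of 71.2% (55 CpGs) and those outside of 26.6% (68 CpGs). Of the latter, 50 formed the unmethylated stretch described next, and the other 18 had a mean of 76.0%, so that outside this stretch CpGs beyond the peaks were no lower than those in them.

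Of the 56 CpGs of the lower flank, 50 lay close together from 7893309 to 7893889, within 581 bp and 3.26 to 3.84 kb below the lower end of DNMT3B. They formed 4 runs, in which neighbouring CpGs were at most 50 bp apart, and were covered by 33 to 446 reads. Leaving aside the first and last CpG of each run, 42 CpGs remained. Of these, 16 had no methylated read, 41 were below 2%, the median was 0.448% and the highest was 6.38%. In all, 52 of their 9614 reads were methylated (0.541%). Without the 50 CpGs, the 73 other CpGs of the locus had a mean degree of 72.4%, and the 6 others of the lower flank, all in the peak at the lower end of the gene, had a mean of 42.9%.

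No Methylation Peak overlapped this unmethylated stretch, with peaks defined once for all libraries. The nearest peak below ended 437 bp away and was the single-CpG peak at 7892871, and the nearest above started 240 bp away at 7894129. Whether the stretch belongs to DNMT3B was not tested, as the strand, the start site and other genes of this build were not used here.

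The 8 CpGs at the ends of the 4 runs differed from the CpGs beside them. Their degrees ran from 33.3% to 76.9%, with a median of 50.3%, whereas no CpG inside a run exceeded 6.38%. The same pattern was present across the table. In all 19156 runs of at least 5 CpGs with an inside median below 5%, the 38312 end CpGs had a median of 41.6% (interquartile range 2.38 to 56.2) against 0.694% inside, and 64.5% of ends but 8.78% of inside CpGs reached 20%. In the 25142 runs with an inside median of at least 80% the ends stood at 92.5% and the inside at 94.4%. The part of this end pattern in the degrees at run ends around DNMT3B was not tested. Without run ends the mean degree of the lower flank was 4.26% and that of the gene body 82.7%.

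**Figure D5:**
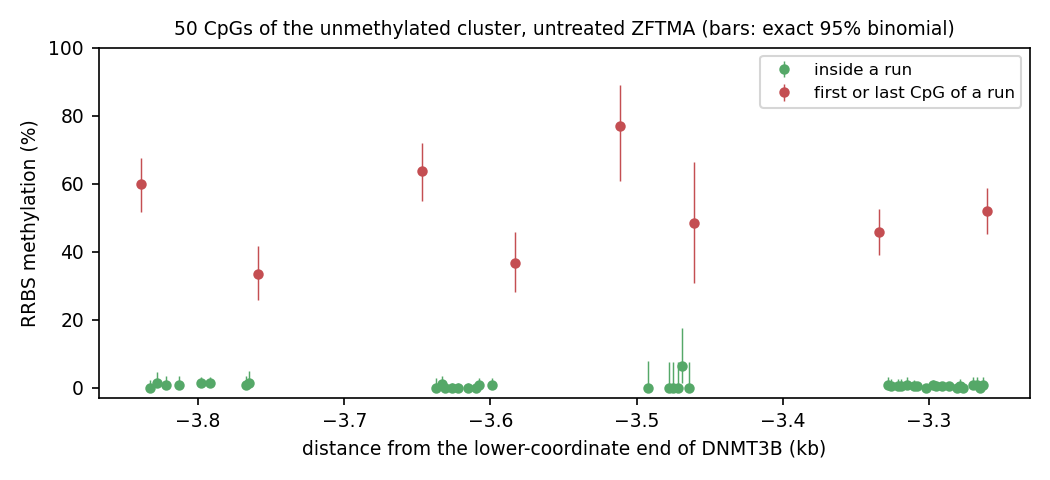
RRBS methylation degree (%) of the 50 CpGs between 3.26 and 3.84 kb below DNMT3B in untreated ZFTMA, with exact 95% binomial intervals; green points lie inside a run of CpGs and red points are the first or last of a run. The 42 inside CpGs lie between 0 and 6.38%, and the 8 end CpGs between 33.3% and 76.9%.

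In the upper flank, 3 CpGs stood below 5%, and the first 2 of them lay on either side of a further low CpG at 12.0%. Whether the ZFTMA genome carries a CpG at these positions was not tested. At 7911537 none (0) of 126 reads was methylated (exact 95% upper bound 2.89%), 7 bp from a CpG at 73.8% and 17 bp from one at 12.0%. At 7911674 none (0) of 125 reads was methylated (upper bound 2.91%), with 12.0% at the CpG 120 bp below and 93.3% at the CpG 24 bp above. At 7923399, 1 of 126 reads was methylated (0.794%, interval up to 4.34), between CpGs at 99.2% and 82.7%. The first 2 lay inside the peak from 7911345 to 7912271, whose 18 CpGs had a mean degree of 63.1%, up to 97.6%.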

How the data were processed

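For RNA-seq, the authors deposited raw fragment counts per gene, made with STAR 2.3.0 on taeGut3.2.4 and Rsubread with Ensembl annotation, allowing up to 10 mapping places and keeping duplicates. For MethylCap-seq, the raw counts deposited by the authors are fragments on each Methylation Peak, mapped with Bowtie2 2.1.0 and freed of duplicates. Peaks were regions over a coverage threshold in the pooled DMSO libraries, trimmed to start and end with a CpG, so that every peak had signal with DMSO by construction. For RRBS, the authors mapped with Bismark 0.9.0 and deposited the coverage as read counts beside the degree as a percent, from 10 reads a CpG upward. Degree times coverage gave whole methylated reads within 0.0234 reads.

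Tests used edgeR 4.0.16 under R 4.3.3 (glmQLFit followed by glmQLFTest, cell line as a block, Benjamini-Hochberg over all 18618 genes or 719917 peaks, FDR 0.1, no filter on low counts). The RNA-seq library size was an own implementation of the PoissonSeq depth (5 iterations, quantiles 0.25 to 0.75), which gave 0.851 to 1.33. The MethylCap-seq library size was the non-duplicate reads given by the study minus the counts in peaks, both taken to count read pairs. Standard errors were back-calculated from the F statistic (the absolute log2 fold change over the root of F), and are not SDs over the lines. Interval bounds and other values were computed in Python 3.11.15 (scipy 1.17.1). Pairing came from the design, since each line received both treatments. Libraries of 1 line deviated together from their group means (correlation 0.273 across genes and 0.164 across peaks). The tests were checked on simulated data in which few genes or peaks changed, all of them well covered. That check does not cover counts as low as those of DNMT3B, or changes in as large a share of peaks as here.

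DNMT3B, its window and the gene list were chosen with earlier results of these data known. Named peaks were those within 2000 bp outside to 500 bp inside either gene end, the 2 with most fragments in the gene body and each flank, and the smallest p of each. Other peaks and CpGs described by position were chosen after their values were seen. Genes of like pattern were the nearest 5 by the distance described. The supplementary tables gave symbols for 2187 genes, and none (0) of the identifiers matched the table of bTaeGut7.mat, which was used for neighbouring names only. Alternatives were TMM, DESeq2 size factors, total counts, the Wald test of DESeq2 1.42.0, filters on low counts, no replicate block, all non-duplicate reads, leaving out each library, and for RRBS a minimum of 30 or 100 reads, weighting by reads and, added after seeing the data, leaving out run ends. The counts over the gene list under these settings were also added after seeing the data.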

Additional observations from a re-analysis of the deposited data

Results flagged for a closer look

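In 3 results the log2 ratios of the cell lines, with 1 library per treatment each, had opposite signs, and the difference between the lines was not tested. The log2 ratio of the single-CpG Methylation Peak at 7892871, 4.28 kb below DNMT3B, was 0.31 in ZFTMA (0 fragments with DMSO, 1 with AZA) and -2.38 in G266 (5 and 1). For SAMHD1 RNA the log2 ratio was -0.06 in ZFTMA, a value near 0 that gives no clear direction, and 0.26 in G266. For SETD2 RNA it was 0.25 in ZFTMA and -0.17 in G266.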

How the results depend on the processing

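DNMT3B had 5 to 11 fragments per library, no gene within 2-fold of its mean was called higher with a log2 fold change below 0.97, and the 11 peaks that were not called held at most 13 fragments. Over the alternatives the DNMT3B log2 fold change stayed above 0. With genes of at least 10 counts in at least 2 libraries it was 1.25 and called (adjusted p = 0.0674 in edgeR). DNMT3B passed this filter only through its AZA-treated libraries. Without single libraries its log2 fold change was 0.91 to 1.55. Of 87 alternative values of the 11 named peaks, 86 kept their direction and 29 lost the call. The peak at 7896803 turned to 0.17 with TMM. The cause of these changes was not tested.

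Genes higher numbered 5186, and 2361 with DESeq2, 4229 with TMM (4081 lower), 6176 with total counts (2301 lower), 4220 without the replicate block (2085 lower) and 2592 to 3543 without single libraries. Genes lower numbered 3043, and 1221 to 1899 without single libraries. Higher genes of the DNA methylation list numbered 6, and 3 with TMM, with DESeq2 size factors and with no replicate block, 2 with DESeq2 and 2 to 4 without single libraries. Peaks lower numbered 392812, and 148 with TMM, 53025 with all non-duplicate reads and 145731 to 387375 without single libraries. Peaks higher numbered 12, and 359 with TMM, 735 with all non-duplicate reads, 6 without the replicate block and 2 to 75 without single libraries. Lower peaks around DNMT3B numbered 20, and 0 with TMM, 5 with all non-duplicate reads, 23 without the replicate block, 20 at an FDR of 0.05 and 10 to 21 without single libraries. The unblocked fit changed the call of none (0) of the 11 named peaks.

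The mean RRBS degree of the locus was 46.6%, and 45.7% at 30 reads, 33.9% at 100 reads, 32.4% weighted by reads and 34.2% without run ends. In that order of the last 3 settings it was 74.2%, 77.1% and 82.7% in the gene body (79.1%), 7.4%, 6.67% and 4.26% in the lower flank (12.5%), and 68.4%, 71.5% and 78% in the upper flank (73.2%).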
